A study of Mus musculus with 13 samples.

Results

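The 9 genes described here, Slc9a4, Car1, Car2, Car4, Aqp8, Tff1, Tff2, Muc6 and Best2, are typical of the epithelium of the stomach or colon and were followed through 13 RNA-seq libraries of mouse small intestine. They were chosen by name with the values of these libraries known, and they are 9 of the 21420 gene identifiers found in both deposited count tables and of the 25183 found in either. All 9 were found by symbol and by Ensembl identifier in both tables.

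The gut epithelium is a single cell layer whose secreted proteins and ion transporters differ by region. In the stomach, pit and gland cells secrete mucins and small trefoil peptides that protect the surface, and acid-secreting parietal cells use carbonic anhydrase and ion exchangers. In the colon, surface cells take up salt and water through exchangers, aquaporins and carbonic anhydrases, and goblet cells secrete mucus and bicarbonate. Regional identity is set in development by transcription factors such as Sox2 and Barx1 in the stomach and Cdx1 and Cdx2 in the intestine. EED and EZH2 are subunits of Polycomb repressive complex PRC2, which places the repressive histone mark H3K27me3.

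The tested crypt groups were Eed KO (genotype Eed-/-, n = 3) and Ezh2 KO (Ezh2-/-, n = 3), beside WT crypts (n = 3). All 9 crypt libraries are labelled as of mixed C57BL/6-FVB background and came from the small intestine of mice that received beta-naphthoflavone for 6 weeks from an age of 6 weeks, so that they were 12 weeks old at collection. The organoid groups, epithelial cultures grown from crypts, were Eed KO (n = 2, labelled C57BL/6-FVB) and WT (n = 2, labelled FVB), each given the same compound for 10 days, so genotype and strain label differ together there. Beta-naphthoflavone switches on the AhCre transgene, which deletes floxed alleles in the gut epithelium, and the labels name AhCre for the organoids and for all run 440 crypts, the WT one included, but not for the Eed KO and WT crypts of run 385. Of the sequencing runs, 385 held the crypt libraries whose names begin with 385 and the 4 organoid libraries, and 440 held Eed KO crypt 440_1, all 3 Ezh2 KO crypts and WT crypt 440_1. The labels do not say whether libraries of a group came from separate mice or cultures, so every p-value reflects variation among libraries that may be technical only.

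Depth was 11421666 to 18300644 counts per library. Eed transcript averaged 18.9 ± 4.94 CPM (read counts scaled to library size) in Eed KO crypts against 54.5 ± 5.18 CPM in WT crypts (SD, n = 3 each), and 24.9 ± 7.98 against 67.8 ± 7.74 CPM in organoids (SD, n = 2 each). Ezh2 transcript averaged 19.3 ± 2.23 CPM in Ezh2 KO crypts against 86.0 ± 12.2 CPM in WT crypts (SD, n = 3 each). All 7 markers of small intestinal epithelium were detected in every group. In Eed KO crypts 6 of the 7 fell (Epcam with a blocked adjusted p of 0.0831, edgeR), beside 10.6% of all genes tested. There the 7 summed to 6586 to 13580 CPM, against 17790 to 30230 CPM in Ezh2 KO and 47670 to 54090 CPM in WT crypts. Most of that sum is the Paneth cell gene Lyz1, at 7575 CPM in Eed KO and 43200 CPM in WT crypts. Vil1, the marker that did not fall, averaged 660.5 and 618 CPM and Epcam 870 and 1431 CPM in the same groups. Olfm4, Cdx1, Lgr5 and Cdh17 fell too, with blocked log2 fold changes of -3.23, -1.905, -1.27 and -1.17, and kept their calls. The part of these marker differences in the members' values was not tested. Mitochondrial counts differed by run, at 3.71% to 8.65% in the crypts of run 440 and 12.4% to 18.0% in those of run 385. In Eed KO crypt 440_1, 8 villus enterocyte markers summed to 3253 CPM, against 864 and 745 CPM in Eed KO crypts 385_1 and 385_2. In bulk libraries such as these, fewer cells of a type and less RNA per cell cannot be told apart.

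RefSeq promoter windows (GRCm38.p6, 250 bases before to 50 after the annotated start) were at hand for 3 members, Car4, Aqp8 and Muc6, and are shown because PRC2 acts mostly at CpG-rich starts of genes and because Cdx factors, which fell in Eed KO crypts, bind T-rich motifs. Each is printed 5′ to 3′ on the gene's strand. Capitals mark matches to the TATA box TATAAA, the Cdx motif TTTATNG or the GATA motif TGATAA, searched on both strands.

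Car4, chr11:84957504-84957803, plus strand: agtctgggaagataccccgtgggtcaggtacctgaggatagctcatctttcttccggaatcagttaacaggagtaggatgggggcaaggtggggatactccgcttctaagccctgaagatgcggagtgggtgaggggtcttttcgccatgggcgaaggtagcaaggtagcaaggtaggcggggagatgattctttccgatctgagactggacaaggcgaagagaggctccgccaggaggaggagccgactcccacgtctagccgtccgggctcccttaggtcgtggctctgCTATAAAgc
Aqp8, chr7:123462044-123462343, plus strand: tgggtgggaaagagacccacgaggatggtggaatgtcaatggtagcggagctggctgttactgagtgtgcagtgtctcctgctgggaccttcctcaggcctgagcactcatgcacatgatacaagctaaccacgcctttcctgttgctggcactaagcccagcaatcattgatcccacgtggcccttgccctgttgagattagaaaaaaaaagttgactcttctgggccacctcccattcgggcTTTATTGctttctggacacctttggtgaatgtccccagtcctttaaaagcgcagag
Muc6, chr7:141655344-141655643, minus strand: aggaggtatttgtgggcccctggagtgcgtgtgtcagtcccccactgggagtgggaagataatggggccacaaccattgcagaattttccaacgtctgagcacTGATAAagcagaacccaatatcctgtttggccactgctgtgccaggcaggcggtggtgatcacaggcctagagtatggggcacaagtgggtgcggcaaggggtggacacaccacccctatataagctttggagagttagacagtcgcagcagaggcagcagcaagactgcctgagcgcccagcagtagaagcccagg

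The Car4 window held 15 CpG dinucleotides, more than 65.4% of the 32851 RefSeq windows of the same length, and the Aqp8 and Muc6 windows held 6 each, against a median of 7. In the Car4 window a match to the letters TATAAA began at position 43 after the start, so not before it. A Cdx match on the opposite strand, which overlaps it, began at position 42. Variants of the letters were not searched, so tatataag before the start in the Muc6 window is unmarked. The Aqp8 window held a Cdx match 6 bases before the start, and the Muc6 window a GATA match 147 bases before it. The same letters occurred in 13.6% (TATA box), 10.9% (Cdx) and 9.05% (GATA) of all windows. These are matches of letters and show no binding.

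In Eed KO crypts the members did not move as one group. Slc9a4, Car2 and Tff2, near 0 or low in WT crypts, stood at 28.0 to 237 CPM in every Eed KO crypt. Aqp8 was detected in every Eed KO crypt and in no WT crypt. Car4, the one member well expressed in WT crypts, was lower in every Eed KO crypt. Best2 overlapped between the groups, Muc6 stayed low, and Car1 and Tff1 stayed at or near 0 in all 13 libraries. Of the 6 members that passed the low-count filter of the crypt fit, 4 were past the adjusted p threshold of 0.05 as higher and 1 as lower in Eed KO crypts, where 24% of the 14406 genes tested were past it (13.4% higher and 10.6% lower). The same 4 were higher and the same 1 lower in every Eed KO than in every WT crypt, as were 17% and 13.5% of all genes. The members were chosen with this contrast known, so nothing is read from these counts and the members are given without p-values. Log2 fold changes below are from edgeR's quasi-likelihood fit of all 9 crypt libraries with the sequencing run as a term.

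**Figure D1:**
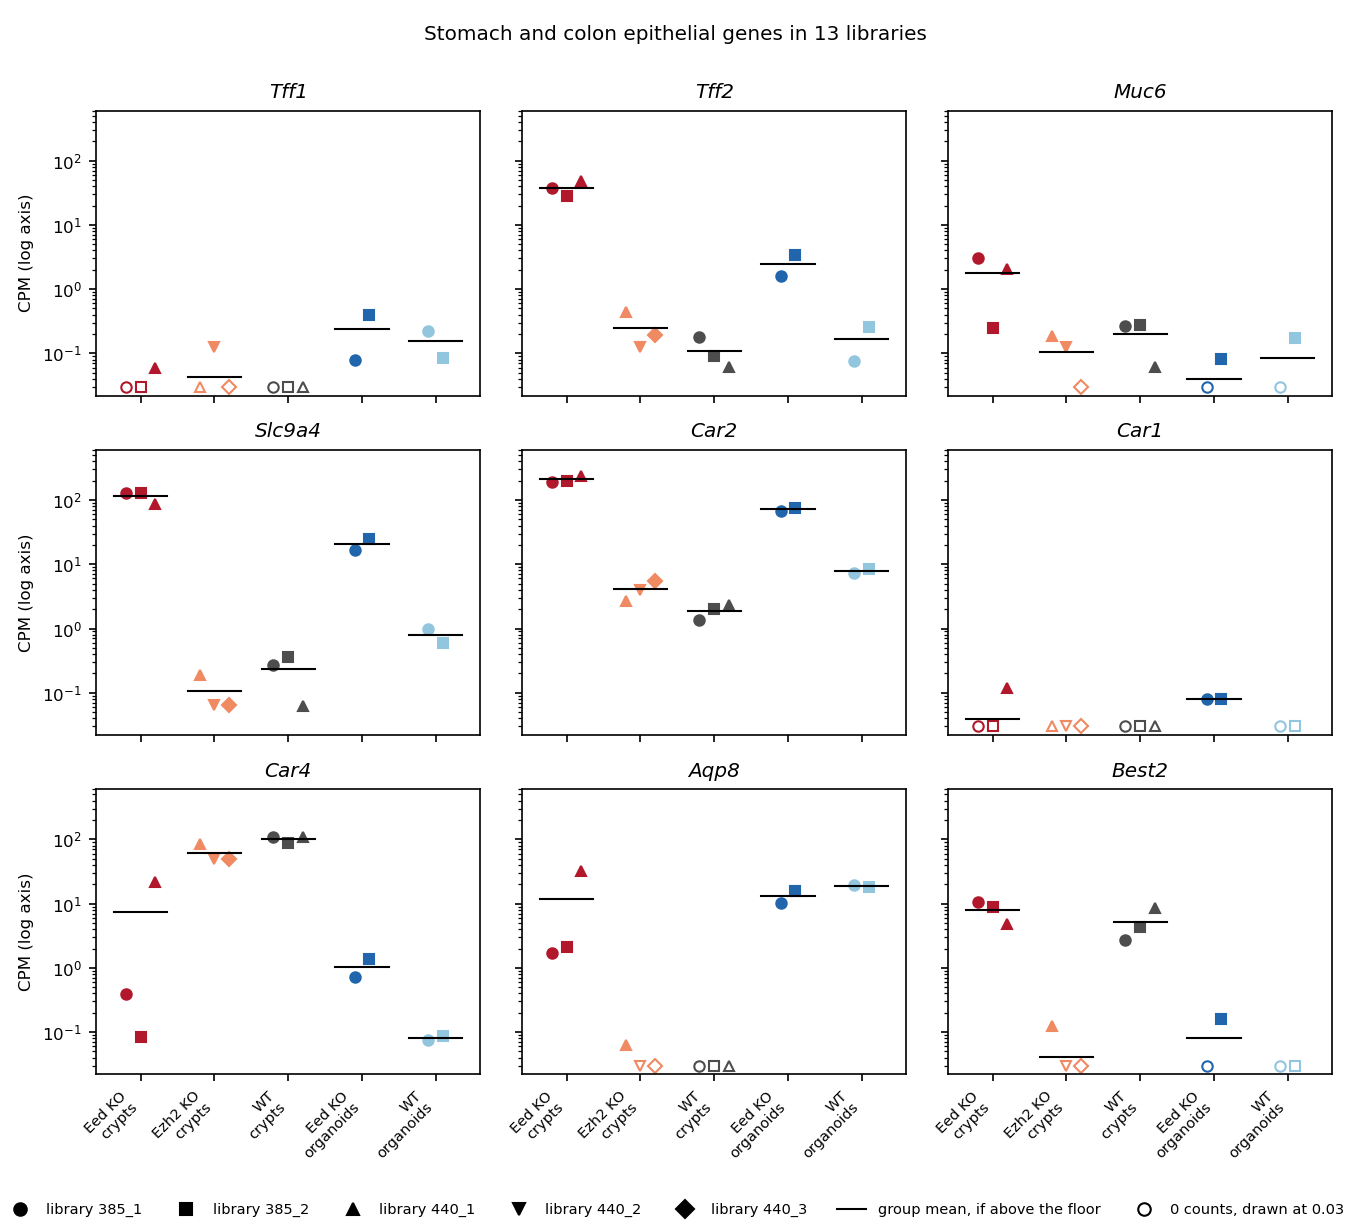
CPM of the 9 members in each library on a log axis, by group, with the group mean as a line and libraries with 0 counts drawn as open symbols at the floor of 0.03. Slc9a4, Car2 and Tff2 were higher in every Eed KO crypt than in any other crypt library, while Car4 was lower in every Eed KO crypt and Car1 and Tff1 stayed near 0.

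Tff2 encodes a trefoil peptide of gastric mucous neck and antral gland cells, made in the small intestine by the duodenal Brunner glands. It had 37.8, 28.0 and 48.2 CPM in Eed KO crypts 385_1, 385_2 and 440_1, 0.438, 0.128 and 0.191 CPM in the Ezh2 KO crypts, and 0.178, 0.0914 and 0.0612 CPM in WT crypts 385_1, 385_2 and 440_1. The 3 Eed KO crypts stood far above all other crypt libraries, and the Ezh2 KO and WT groups overlapped. The summed counts were 1645 in Eed KO against 4 in WT crypts, a ratio of 377 (exact 95% counting interval 147 to 1385), and the fitted log2 fold change was 8.42 ± 0.46 (SE). All intervals of this kind cover counting error only. In organoids Tff2 had 1.60 and 3.39 CPM in Eed KO against 0.0750 and 0.257 CPM in WT cultures, a log2 fold change of 3.87 ± 0.72 (SE). Both Eed KO cultures were above both WT cultures, and below every Eed KO crypt.

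Tff1, the trefoil peptide of gastric pit cells, and Tff3, that of intestinal goblet cells, lie beside Tff2 on chromosome 17. Tff1 reached at most 5 counts in a library, in an Eed KO organoid, and had 1 count over the 3 Eed KO crypts against 0 over the 3 WT crypts. It did not pass the filter in any fit. Its gene overlaps Gm15318, annotated as antisense, and strand use in counting was not given in the sources used here. Tff3 averaged 898 ± 321 CPM in Eed KO crypts against 760 ± 352 CPM in WT crypts (SD, n = 3 each), with a log2 fold change of 0.30 ± 0.16 (SE, edgeR adjusted p = 0.217). In organoids Tff3 rose to 798 ± 60.2 CPM in Eed KO, against 302 ± 16.4 CPM in WT cultures (SD, n = 2 each; log2 fold change 1.40 ± 0.14, edgeR adjusted p = 0.000849). So within this cluster the gastric gland gene had the large ratio in Eed KO crypts, the gastric pit gene was near 0 and the intestinal gene was abundant in every group.

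Muc6 encodes the gel-forming mucin of gastric gland and Brunner gland mucous cells, the same cell types that make Tff2. It had 39, 3 and 35 counts in Eed KO crypts 385_1, 385_2 and 440_1 against 3, 3 and 1 counts in the WT crypts. Eed KO crypts 385_1 and 440_1 were above all WT crypts, whereas 385_2, at 0.249 CPM, lay within the WT range. Muc6 did not pass the filter, and its summed counts gave a ratio of 10.1 (4.67 to 25.9). Without the filter the log2 fold change was 3.20 ± 0.96 (SE) and past the threshold. Of the alternatives in which Muc6 passed the filter, it was past the threshold without Eed KO crypt 385_2 (3.88 ± 0.72) and without Ezh2 KO crypt 440_3 (3.21 ± 0.96), and not in the others (2.58 to 5.02). Per kilobase of exon, so that lengths do not enter, Tff2 stood at 65.1 ± 17.3 and Muc6 at 0.190 ± 0.150 CPM in Eed KO crypts (SD, n = 3 each). In organoids Muc6 had 1 count over the Eed KO and 2 counts over the WT cultures.

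Of the other secreted gel-forming mucins, Muc5ac, that of gastric pit cells, averaged 0.454 ± 0.404 CPM in Eed KO crypts and had 0 counts in Ezh2 KO and WT crypts, and Muc5b averaged 1.44 ± 0.842 CPM in Eed KO crypts and also had 0 counts in both (SD, n = 3). Neither passed the filter. Muc2, the intestinal goblet cell mucin, averaged 1217 ± 822 CPM in Eed KO crypts and 1288 ± 743 CPM in WT crypts (SD, n = 3 each; log2 fold change -0.12 ± 0.38, edgeR adjusted p = 0.857).

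Slc9a4 encodes NHE4, a sodium-proton exchanger of the basolateral membrane of gastric parietal and chief cells. It had 129.5, 127 and 87.2 CPM in Eed KO crypts 385_1, 385_2 and 440_1, 0.188, 0.0640 and 0.0637 CPM in the Ezh2 KO crypts, and 0.268, 0.366 and 0.0612 CPM in WT crypts 385_1, 385_2 and 440_1. No other crypt library came near the Eed KO crypts, and the Ezh2 KO and WT crypts overlapped at 1 to 4 counts each. The summed counts were 4693 against 8, a ratio of 538 (273 to 1246), and the log2 fold change was 9.02 ± 0.32 (SE). In organoids it had 16.5 and 25.0 CPM in Eed KO against 0.975 and 0.599 CPM in WT cultures (log2 fold change 4.68 ± 0.37, SE). The order of the means was Eed KO crypts, Eed KO organoids, WT organoids, WT crypts, Ezh2 KO crypts, and the last pair did not differ beyond their spread.

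Among the 8 other sodium-proton exchangers tested in crypts, 2 rose in Eed KO crypts and none fell, beside 13.4% of all genes higher and 10.6% lower. Slc9a3, the apical exchanger of absorptive enterocytes, averaged 49.3 ± 16.6 CPM in Eed KO against 6.56 ± 4.45 CPM in WT crypts (SD, n = 3 each; log2 fold change 3.06 ± 0.50, edgeR adjusted p = 0.00302). Slc9a9, an endosomal exchanger, averaged 15.1 ± 0.878 against 1.83 ± 0.748 CPM (SD, n = 3 each; log2 fold change 3.13 ± 0.38, edgeR adjusted p = 0.000784). Slc9a2, which lies 51.0 kb from Slc9a4, averaged 60.2 ± 24.8 CPM in Eed KO against 44.4 ± 7.03 CPM in WT crypts (SD, n = 3 each; edgeR adjusted p = 0.294).

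Car2 encodes carbonic anhydrase 2, the cytosolic enzyme that supplies protons and bicarbonate in parietal cells and is also used by colonic epithelium. It had 192, 197 and 237 CPM in Eed KO crypts 385_1, 385_2 and 440_1, 2.69, 4.03 and 5.54 CPM in the Ezh2 KO crypts, and 1.34, 2.01 and 2.33 CPM in WT crypts 385_1, 385_2 and 440_1. The Eed KO crypts were close to each other and apart from all others, and the Ezh2 KO crypts lay just above the WT crypts without overlap. The fitted log2 fold change was 6.80 ± 0.30 (SE) for Eed KO and 0.88 ± 0.32 (SE) for Ezh2 KO against WT crypts. In organoids Car2 had 68.0 and 75.0 CPM in Eed KO against 7.42 and 8.47 CPM in WT cultures (log2 fold change 3.16 ± 0.16, SE). Car2 was the member with the highest level per kilobase of exon in Eed KO crypts, at 86.1 ± 10.3 CPM (SD, n = 3).

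Car1, a cytosolic carbonic anhydrase abundant in colonic epithelium and red cells, lies 78.1 kb from Car2 on chromosome 3. It had 2 counts over the 3 Eed KO crypts, all in 440_1, and 0 over the 3 WT crypts, and 2 counts over the Eed KO against 0 over the WT organoids. Car3, which lies between them, averaged 0.211 ± 0.0391 CPM in Eed KO and 0.224 ± 0.389 CPM in WT crypts (SD, n = 3 each). Of these 3 genes, Car2 was the one above 1 CPM in any library. Car13, farther off on the same chromosome, averaged 35.9 ± 3.42 CPM in Eed KO and 40.8 ± 6.71 CPM in WT crypts (SD, n = 3 each).

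Car4 encodes a membrane-anchored carbonic anhydrase of the enterocyte surface, best known from the colon. It had 0.386, 0.0830 and 21.96 CPM in Eed KO crypts 385_1, 385_2 and 440_1, 84.8, 48.9 and 50.03 CPM in the Ezh2 KO crypts, and 107, 86.7 and 107.5 CPM in WT crypts 385_1, 385_2 and 440_1. Every Eed KO crypt was below every other crypt library, and 440_1 lay far above the other Eed KO crypts. The log2 fold change was -5.43 ± 1.12 (SE) over both runs. It was -8.60 ± 0.39 within run 385, on 2 Eed KO and 2 WT crypts, and -2.17 ± 0.44 within run 440, on 1 Eed KO and 1 WT crypt with the spread taken from the Ezh2 KO crypts. With same-numbered libraries as a block, without the Ezh2 KO libraries, it was -5.73 ± 1.5 and no longer past the threshold. In organoids the direction was opposite at a far lower level, with 9 and 17 counts in Eed KO against 1 and 1 in WT cultures, a ratio of 13.1 (3.27 to 113.5). Car4 did not pass the organoid filter. Without the filter its log2 fold change was 3.54 ± 0.87 (SE) and past the threshold, and of the fits without 1 library that kept it, the one without Eed KO organoid 385_1 was past it (3.94 ± 0.97) and those without a WT organoid were not (3.44 ± 1.26 and 3.64 ± 1.25).

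Aqp8 encodes an aquaporin of the colonic surface epithelium. It had 22, 25 and 547 counts in Eed KO crypts 385_1, 385_2 and 440_1, 1, 0 and 0 in the Ezh2 KO crypts, and 0 in each WT crypt. Again 440_1 stood apart, at 32.2 CPM against 1.70 and 2.08 CPM in the other Eed KO crypts. Against a floor of 3 counts over the WT group, the summed Aqp8 counts were at least 181.5-fold higher in Eed KO crypts. Of those 594 counts 547 came from 440_1, so the bound does not hold for 385_1 and 385_2 taken alone. In organoids it was expressed in both genotypes, with 10.4 and 16.0 CPM in Eed KO against 19.8 and 18.3 CPM in WT cultures (log2 fold change -0.54 ± 0.24, SE). WT organoids were thus at least 245-fold above WT crypts on the same floor, a comparison in which the strain labels also differ. The order of the means was WT organoids, Eed KO organoids, Eed KO crypts, then Ezh2 KO and WT crypts near 0.

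Both Car4 and Aqp8 were higher in Eed KO crypt 440_1 than in the other Eed KO crypts. Summed genes of villus enterocytes, of the ileum and of the proximal small intestine differed in the same way. Summed over 8 ileum genes, Eed KO crypts 385_1, 385_2 and 440_1 had 9.42, 10.0 and 194 CPM, against 154, 62.6 and 155 CPM in WT crypts 385_1, 385_2 and 440_1. Summed over 8 genes of the proximal small intestine, they had 92.9, 105 and 1231 CPM, against 460, 383 and 862 CPM in the WT crypts. The villus enterocyte sum was 745 to 3253 CPM in Eed KO against 1274 to 2532 CPM in WT crypts. The part of these differences in the Car4 and Aqp8 values was not tested.

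**Figure D2:**
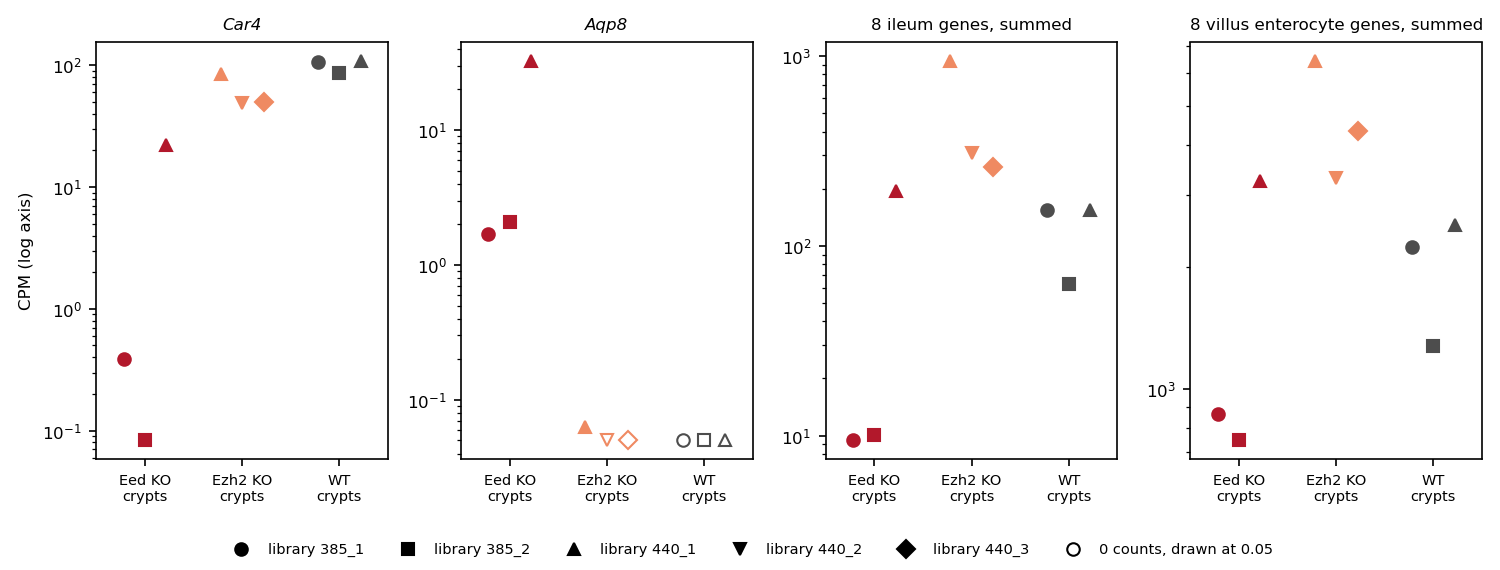
CPM of Car4 and Aqp8, and summed CPM of 8 ileum and 8 villus enterocyte genes, in each crypt library on log axes, with 0 counts drawn as open symbols at 0.05. Eed KO crypt 440_1 (triangle) lies above Eed KO crypts 385_1 and 385_2 in each panel.

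Best2 encodes a bestrophin chloride and bicarbonate channel of colonic goblet cells. It had 10.4, 8.88 and 4.77 CPM in Eed KO crypts 385_1, 385_2 and 440_1, 0.125, 0 and 0 CPM in the Ezh2 KO crypts, and 2.68, 4.30 and 8.45 CPM in WT crypts 385_1, 385_2 and 440_1. Eed KO and WT crypts overlapped, and all Ezh2 KO crypts lay below both. The log2 fold change of Eed KO against WT crypts was 0.72 ± 0.57 (SE), being 1.46 ± 0.34 within run 385 and -0.70 ± 0.68 within run 440. Ezh2 KO against WT crypts had 2 against 215 counts, 132-fold fewer after scaling (36.1 to 1098), a log2 fold change of -6.80 ± 0.93 (SE) that was not past the threshold, although DESeq2 on the same design put it past (-7.07 ± 1.22, SE). In organoids there were 2 counts over the Eed KO and 0 over the WT cultures, so WT organoids were at least 46.6-fold below WT crypts.

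Among crypts the summed level of 8 immune cell markers was, like Best2, lowest in the Ezh2 KO group, although Cd3e alone averaged 2.80 CPM there against 2.27 CPM in WT crypts. In Eed KO against WT crypts 3 of the 8 rose, beside 13.4% of all genes. Of these 3, Laptm5 kept its call with the block and Tyrobp and Itgax did not (edgeR blocked adjusted p = 0.105 and 0.0512). The 8 summed to 166, 149 and 63.5 CPM in Eed KO crypts 385_1, 385_2 and 440_1, 25.4 to 36.3 CPM in Ezh2 KO crypts and 75.1, 75.1 and 64.0 CPM in WT crypts, and were at most 1.92 CPM in organoids. The 7 erythroid markers, relevant to Car1 and Car2, summed to at most 2.55 CPM in any library. The 7 endothelial markers, relevant to Car4, summed to 9.34 to 13.5 CPM in Eed KO and 5.76 to 8.12 CPM in WT crypts. The 4 pancreatic acinar markers in the tables summed to 6.18 to 8.63 CPM in Eed KO and 4.02 to 8.51 CPM in WT crypts. The part of the immune cells in the Best2 values, and of the other cell types in the members' values, was not tested.

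Against the same WT crypts, 0 of the 6 members tested were past the threshold in Ezh2 KO crypts, where 0.0208% of 14406 genes were. That is 3 genes in edgeR, with 1179 at an unadjusted p under 0.05, and 68 genes in DESeq2. Car2 was higher, and Car4 and Best2 lower, in every Ezh2 KO than in every WT crypt, as were 11% and 8.99% of all genes. For Car4 the log2 fold change was -3.05 ± 1.27 over both runs and -0.78 ± 0.33 within run 440, which holds all Ezh2 KO crypts (SE). Against Ezh2 KO crypts, 5 of 6 members were past the threshold as higher in Eed KO crypts and 0 as lower, beside 20% of all genes (12% higher and 8.05% lower). Without overlap, 5 were higher and Car4 lower, as were 20.1% and 20.3% of all genes. Slc9a4 had a log2 fold change of 9.50 ± 0.35, Tff2 of 7.44 ± 0.43 and Car2 of 5.92 ± 0.30 in Eed KO against Ezh2 KO crypts (SE). Aqp8 had 594 against 1 count, a ratio of 669 (120 to 26460), and Best2 had 323 against 2 counts, a ratio of 182 (49.9 to 1508). Eed KO crypt 440_1 is the one Eed KO library that shares a run with the Ezh2 KO crypts. Without it, Tff2 (5.86 ± 2.20) and Aqp8 were no longer past the threshold.

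**Figure D3:**
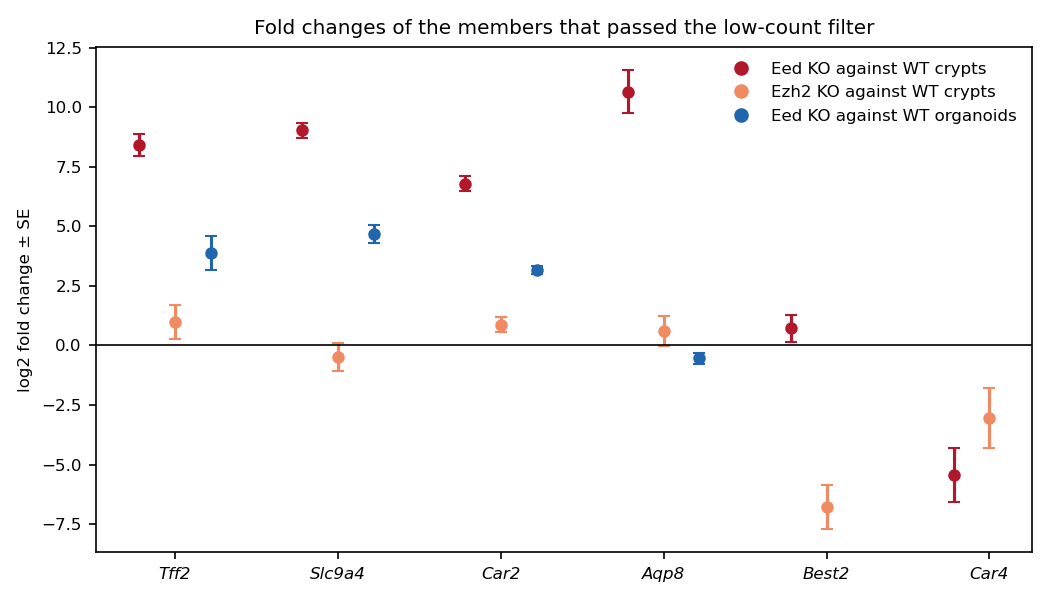
Log2 fold change with its SE of the 6 members that passed the crypt filter, for Eed KO against WT crypts, Ezh2 KO against WT crypts and Eed KO against WT organoids. Tff2, Slc9a4 and Car2 were above 0 in Eed KO crypts and organoids, with the crypt value larger; Car4 and Best2 did not pass the low-count filter in organoids, and the fitted Aqp8 value in crypts rests on 0 counts in the WT group.

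In organoids, 3 of the 4 members tested (Slc9a4, Car2 and Tff2) were past the threshold as higher in Eed KO and 0 as lower, beside 18.2% of 12958 genes (13.5% higher and 4.63% lower). Without overlap these 3 were higher and Aqp8 was lower, as were 31.7% and 27.3% of the 12902 tested genes whose identifiers both runs share. For Slc9a4 the Eed effect in crypts exceeded that in organoids by 4.33 ± 0.57, for Car2 by 3.63 ± 0.35 and for Tff2 by 4.54 ± 1.22 on the log2 scale (SE, edgeR fit of 13 libraries). Slc9a4 and Car2 were past the threshold of that contrast, together with Aqp8, beside 4.12% of 14761 genes (1.13% higher and 2.99% lower), and Tff2 was not. The WT groups differed too. WT organoids exceeded WT crypts by 2.18 ± 0.28 for Car2 and by 1.64 ± 0.52 for Slc9a4 on the log2 scale (SE). Between the WT groups 3 of 7 members were past the threshold as higher and 2 as lower in organoids, beside 28.1% of genes (9.17% higher and 18.9% lower).

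Other genes of stomach and colon were read from lists drawn up with earlier results known. Of 33 further stomach genes in the tables, 23 were tested in crypts, of which 13 rose and 3 fell in Eed KO crypts. Over all genes 13.4% were higher and 10.6% lower. The median log2 fold change of the 23 was 1.62, against -0.04 over all genes. Vsig1, Gkn1, Mucl3, Bpifb1 and Esrrb, which rose, had 0 counts over the WT and at most 3 over the Ezh2 KO crypts. Such genes passed the low-count filter only through the Eed KO group, so nothing is read from the counts or the median. In Ezh2 KO crypts 0 of the 23 passed, beside 0.0208% of all genes, and their median was 0.26. In organoids 20 were tested, of which 10 rose and 0 fell, beside 13.5% of all genes higher and 4.63% lower. The median of the 20 was 1.37, against -0.005 over all genes. Nothing is read from these counts or from those of the other lists.

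The genes of gastric pit and surface cells were 6 of 8 tested higher and 1 lower in Eed KO crypts, beside 13.4% and 10.6% of all genes. Vsig1, an adhesion molecule of the gastric epithelium, had 24.0, 30.5 and 16.3 CPM in Eed KO crypts and 0 counts in the WT crypts, at least 292-fold (edgeR adjusted p = 0.000181). Gkn1, the secreted protein gastrokine 1, had 3.09, 6.64 and 23.5 CPM against 0 counts (edgeR adjusted p = 0.00173). Its summed counts were at least 159-fold higher, with 399 of the 519 from Eed KO crypt 440_1. Muc1, a membrane mucin, had 70.3, 34.3 and 135 CPM against 0 to 0.274 CPM (log2 fold change 9.13 ± 0.79, edgeR adjusted p = 0.00022). Mucl3, a mucin-like protein, had 158 counts over the Eed KO against 0 over the WT crypts, at least 48.3-fold (edgeR adjusted p = 0.00521). Ctse, an aspartic protease, and Sult1c2 also rose, the second with a blocked adjusted p of 0.0624. Capn9, a calpain of gastric and intestinal mucous cells, fell to 5.06 to 18.7 CPM in Eed KO crypts, against 19.7 to 47.9 CPM in WT crypts (log2 fold change -1.79 ± 0.19, edgeR adjusted p = 0.000444). Gkn2, Cldn18 and Muc5ac stayed below 1 CPM in every library.

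Of the mucous gland genes, the cell type of Tff2 and Muc6, 4 of 5 tested rose and 1 fell, beside 13.4% of all genes higher and 10.6% lower. Bpifb1 had 19.2, 8.14 and 13.3 CPM in Eed KO crypts and 0 counts in WT crypts, at least 175-fold (edgeR adjusted p = 0.00057). Aqp5, a water channel, had 13.9, 2.08 and 8.36 CPM in Eed KO crypts against 1 count over the WT crypts, a ratio of 318 (56.7 to 12600; edgeR adjusted p = 0.00178). Aqp5 shares its low value in Eed KO crypt 385_2 with Muc6. Gkn3 rose as well, with a blocked adjusted p of 0.0955. Glipr1 had a log2 fold change of 2.91 ± 0.36 (SE, edgeR adjusted p = 0.000784). A4gnt, which makes the glycan of gland mucin, fell by 0.95 ± 0.17 on the log2 scale (SE, edgeR adjusted p = 0.00466), with a blocked adjusted p of 0.0559.

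Genes of acid and enzyme secretion are given beside the 13.4% of all genes that were higher and the 10.6% that were lower. Nothing is read from their counts. Of 3 chief cell genes tested 1 rose, Pgc, a pepsinogen (log2 fold change 2.63 ± 0.54, edgeR adjusted p = 0.00772). Of 5 parietal cell genes tested, Esrrb and Clic6 (blocked adjusted p = 0.133) rose and Esrrg, a nuclear receptor of parietal cells, fell (-1.38 ± 0.16, edgeR adjusted p = 0.000593). Esrrb, a related nuclear receptor, had 2.74 to 5.48 CPM in Eed KO crypts against 0 counts in WT crypts. Atp4a, the catalytic subunit of the gastric proton pump, had 0.463 to 0.747 CPM in Eed KO and 0.446 to 1.10 CPM in WT crypts, and its log2 fold change was -0.59 ± 0.52 (SE). Slc9a4 and Car2 were thus high in libraries in which the pump itself was near 0. The 6 gastric gland markers in the tables summed to 10.1 to 31.7 CPM in Eed KO crypts against 3.06 to 4.55 CPM in WT crypts, with Gkn1 and Pgc the members that rose.

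Of 19 further colon genes in the tables, 15 were tested in crypts, of which 2 rose and 4 fell in Eed KO crypts, where 13.4% of all genes were higher and 10.6% lower, so the count of higher ones is at the level of all genes. Their median log2 fold change was 0.78, against -0.04 over all genes. Mptx1, a pentraxin (3.11 ± 0.81, edgeR adjusted p = 0.024), and Slc6a14, an amino acid transporter (2.81 ± 0.88, edgeR adjusted p = 0.0495), rose. Slc26a3, the chloride-bicarbonate exchanger of colonic surface cells, fell to 2.39, 9.71 and 15.02 CPM in Eed KO crypts, against 48.8, 53.4 and 49.8 CPM in WT crypts (-2.59 ± 0.53, edgeR adjusted p = 0.00829). Zg16, a goblet cell lectin, fell (-2.46 ± 0.62, edgeR adjusted p = 0.0203), as did B4galnt2 (-1.27 ± 0.19, edgeR adjusted p = 0.00209) and Hsd11b2 (-0.78 ± 0.24, edgeR adjusted p = 0.0447). With same-numbered libraries as a block, Slc26a3 and B4galnt2 kept their call, while the blocked adjusted p was 0.121 for Mptx1, 0.156 for Slc6a14, 0.11 for Zg16 and 0.172 for Hsd11b2. The epithelial sodium channel subunits Scnn1b and Scnn1g were at most 0.412 CPM in every library.

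In organoids 5 of 14 colon genes tested rose in Eed KO cultures and 2 fell, beside 13.5% of all genes higher and 4.63% lower. Slc5a8, a monocarboxylate transporter, had 9.19 and 7.74 CPM in Eed KO against 0.0750 and 0.171 CPM in WT cultures (ratio of counts 70.7, 23.9 to 345; edgeR adjusted p = 0.000376). Retnlb, a goblet cell resistin-like protein, fell to 0 and 0.161 CPM, against 75.1 and 60.2 CPM (-9.56 ± 0.41, edgeR adjusted p = 4.21e-05). Zg16 rose (1.501 ± 0.14, edgeR adjusted p = 0.000722). Among stomach genes in organoids, Esrrb had 31 counts over Eed KO against 0 over WT cultures, at least 10.4-fold, Mucl3 40 against 1 (ratio 40.2, 6.81 to 1626), Muc1 68 against 2 (ratio 34.2, 9.10 to 288), and Ctse had a log2 fold change of 3.93 ± 0.44 (SE, edgeR adjusted p = 0.0015).

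**Figure D4:**
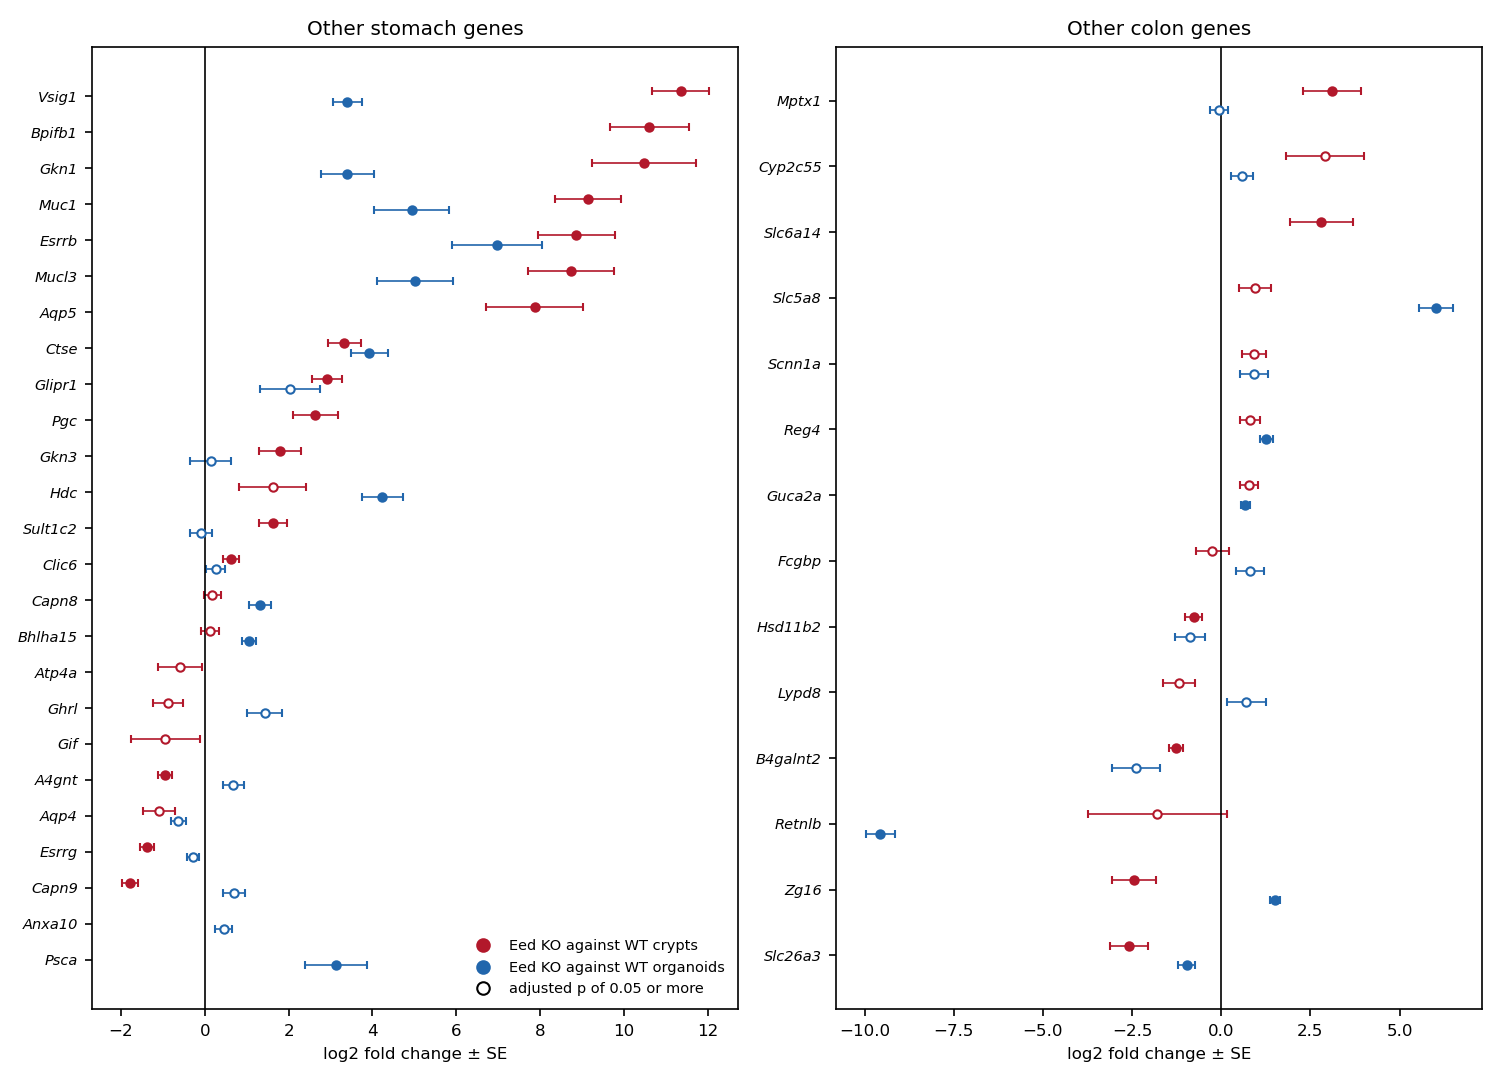
Log2 fold change with its SE of the further stomach genes (left) and colon genes (right) that were tested, except a colon gene not reported here, in Eed KO against WT crypts and in Eed KO against WT organoids; open symbols have an adjusted p of 0.05 or more. Crypt values of Vsig1, Bpifb1, Gkn1, Mucl3 and Esrrb are fitted against 0 counts in the WT group, so they are no measured folds and give no ranking, and colon genes lie on both sides of 0.

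Transcription factors that mark gut regions were read from lists as well. Sox2, a factor of the embryonic foregut and stomach, had 23.9, 20.1 and 14.4 CPM in Eed KO crypts against 0 counts in WT crypts, at least 243-fold (edgeR adjusted p = 0.000217). Barx1, a homeobox factor of the developing stomach mesenchyme, had 33.9, 19.8 and 15.4 CPM against 1 count over the WT crypts, a ratio of 861 (154 to 34060; edgeR adjusted p = 0.000281). Foxq1, a factor needed for gastric mucin in mice, rose to 22.5 to 30.4 CPM in Eed KO crypts, against 4.02 to 5.48 CPM in WT crypts (log2 fold change 2.51 ± 0.26, edgeR adjusted p = 0.000426). With Pdx1, 4 of the 7 stomach factors tested rose and 0 fell, beside 13.4% of all genes higher and 10.6% lower. Sox2 and Barx1 passed the low-count filter only through the Eed KO group, so nothing is read from the count.

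On the intestinal side, 4 of 8 factors fell and 3 rose, beside 10.6% of all genes lower and 13.4% higher. Those that rose, Hoxa13, Hoxb13 and Hoxd13, passed the low-count filter only through the Eed KO group, so nothing is read from the count. Cdx2 fell to 33.4, 31.0 and 111 CPM in Eed KO crypts, against 219.5, 182 and 189 CPM in WT crypts (-2.005 ± 0.34, edgeR adjusted p = 0.00365). Cdx1 (-1.89 ± 0.19, edgeR adjusted p = 0.000368), Hnf4g (-2.13 ± 0.27, edgeR adjusted p = 0.00101) and Hnf4a (-1.35 ± 0.23, edgeR adjusted p = 0.0035) fell as well. Hoxa13, Hoxb13 and Hoxd13, factors of the hindgut, each had 0 counts in WT crypts and averaged 12.8 ± 1.25, 60.2 ± 16.8 and 30.8 ± 3.02 CPM in Eed KO crypts (SD, n = 3). Cdx2 was higher in Eed KO crypt 440_1 than in 385_1 and 385_2, as Car4, Aqp8 and Slc26a3 were. None of the 15 regional factors tested passed in Ezh2 KO crypts, where 0.0208% of all genes did, so nothing is read from this. Sox2, Barx1, Hoxa13, Hoxb13 and Hoxd13 had at most 1 count over the Ezh2 KO or the WT crypts and could not pass there.

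**Figure D5:**
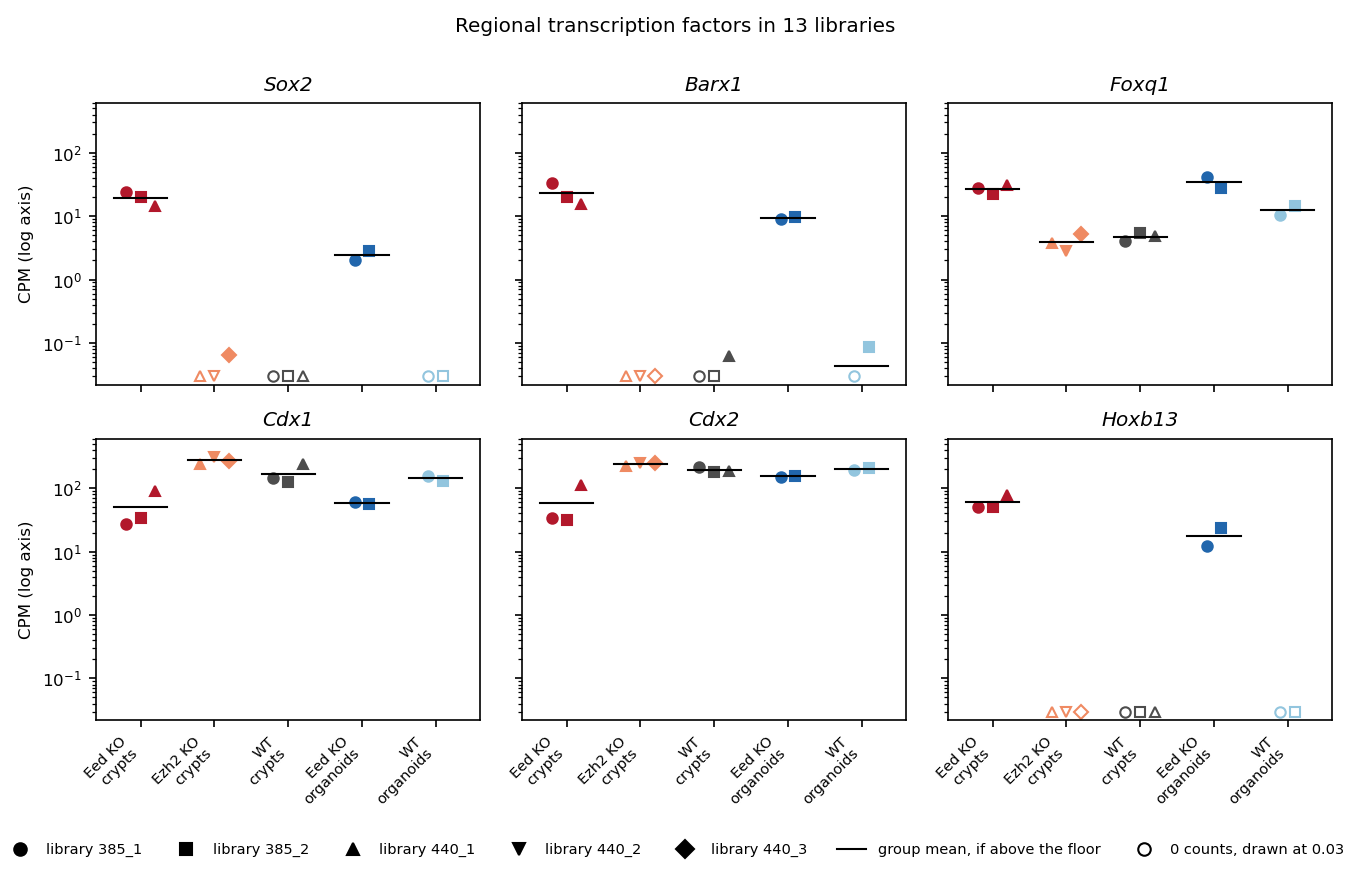
CPM of 6 regional transcription factors in each library on a log axis, with group means as lines and 0 counts drawn as open symbols at 0.03. Sox2, Barx1 and Hoxb13 were at 14.4 to 79.6 CPM in Eed KO crypts and at or near 0 in WT and Ezh2 KO crypts, whereas Cdx1 and Cdx2 were lower in Eed KO than in WT crypts.

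Of the further carbonic anhydrases, 3 of 7 tested in crypts rose and 0 fell, beside 13.4% of all genes higher and 10.6% lower. Nothing is read from the count. Car5b, a mitochondrial enzyme, averaged 5.09 ± 0.930 CPM in Eed KO against 1.17 ± 0.245 CPM in WT crypts (SD, n = 3 each; log2 fold change 2.12 ± 0.35, edgeR adjusted p = 0.00303). Car11, a related protein without enzyme activity, averaged 4.63 ± 0.805 against 0.861 ± 0.533 CPM (SD, n = 3 each; log2 fold change 2.45 ± 0.47, edgeR adjusted p = 0.00571). Car12, a membrane enzyme already abundant in WT crypts, rose by 0.45 ± 0.14 on the log2 scale (SE, edgeR adjusted p = 0.0459), with a blocked adjusted p of 0.19. Car8, Car9, Car13 and Car15 did not pass, with edgeR adjusted p from 0.245 to 0.975. Car3, Car5a, Car6, Car7, Car10 and Car14 did not pass the filter and averaged at most 0.666 CPM in any group. In organoids Car5b (2.57 ± 0.59, edgeR adjusted p = 0.0235) and Car8 (0.94 ± 0.18, edgeR adjusted p = 0.0125) rose, while Car9, Car12 and Car13 did not pass.

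Aqp3, a basolateral glycerol and water channel of the colon, rose to 10.0, 13.4 and 37.2 CPM in Eed KO crypts, against 0.893, 0.274 and 1.53 CPM in WT crypts (log2 fold change 4.44 ± 0.41, edgeR adjusted p = 0.000266). With Aqp5, which passed the low-count filter only through the Eed KO group, it made 2 of 6 further aquaporins tested that rose, and 0 fell. Among 13 tested genes of bicarbonate and chloride transport, Slc26a9 (3.86 ± 0.60, edgeR adjusted p = 0.00228), a chloride channel of gastric surface cells, and Ano1 (2.09 ± 0.49, edgeR adjusted p = 0.0158; blocked 0.092) rose. Slc26a3, Cftr (-1.30 ± 0.29, edgeR adjusted p = 0.0124), Slc4a4 (-1.17 ± 0.24, edgeR adjusted p = 0.00746) and Slc12a2 (-0.58 ± 0.17, edgeR adjusted p = 0.0357; blocked adjusted p = 0.13) fell. Over all genes 13.4% were higher and 10.6% lower, so nothing is read from the counts of these families.

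Genes that start within 100 kb of a member were mostly without a call. Of 38 such genes that are not members, 28 were tested in crypts, of which 4 rose and 2 fell in Eed KO crypts, and 25 in organoids, of which 5 rose and 1 fell. Over all genes 13.4% were higher and 10.6% lower in crypts and 13.5% and 4.63% in organoids, so nothing is read from these counts. Beside Tff2, Abcg1 averaged 8.13 CPM in Eed KO against 1.99 CPM in WT crypts (log2 fold change 2.04 ± 0.31, edgeR adjusted p = 0.00206). Beside Best2, Fbxw9 averaged 55.5 against 23.8 CPM, Junb 64.7 against 37.3 CPM and Mast1 1.46 against 0.356 CPM in Eed KO against WT crypts, and each rose, while Rnaseh2a, at 25.9 against 45.8 CPM, fell. Beside Aqp8, Lcmt1 averaged 19.9 against 28.3 CPM and fell (-0.49 ± 0.15, edgeR adjusted p = 0.0486). Beside Slc9a4, Il18rap averaged 2.33 against 0.356 CPM without passing in crypts (edgeR adjusted p = 0.052). Beside Car4, Usp32, Znhit3, Myo19 and Pigw had log2 fold changes of -0.60 to -0.13 and none passed. Ap2a2, 0.961 kb from Muc6, averaged 93.0 against 111.5 CPM (edgeR adjusted p = 0.342).

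By the root mean square difference of log2 CPM group means, centred over the 5 groups, the 3 genes most like each member were taken from 14761 genes, as a description. Slc9a4 was nearest to Krt4 (0.51 log2 units), Pax9 (0.65) and Zic1 (0.66). Krt4, a keratin of stratified epithelium such as the mouse forestomach, averaged 105 ± 47.5 CPM in Eed KO crypts and 0.121 ± 0.105 CPM in WT crypts (SD, n = 3 each). Among the genes nearest to Tff2 were Alx4 (0.26) and Epha3 (0.40), developmental genes that averaged 19.9 ± 3.27 and 14.4 ± 7.80 CPM in Eed KO crypts, against 0.0297 ± 0.0515 and 0.0713 ± 0.0636 CPM in WT crypts (SD, n = 3 each). Car2 was nearest to Msx1 (0.38), Zfp750 (0.50) and Gpr83 (0.51). Aqp8 was nearest to Sprr2a3 (0.10), Cyp2d34 (0.75) and Gsta3 (0.76), which like Aqp8 were high in organoids of both genotypes. Car4 was nearest to Apol10a (0.90), Psmb8 (1.43) and Serpina10 (1.48), at larger distances. Best2 was nearest to Btla (0.76), a lymphocyte receptor, Arhgap30 (0.90) and Ubxn10 (0.95), and Muc6, with at most 39 counts in a library, to Cd33, Retnlg and Ighv5-12 (each 0.12), which are genes of blood cells.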

How the data were processed

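Poly(A) RNA from 9 crypt and 4 organoid samples was sequenced over 2 runs with a strand-specific kit, per the labels' protocols. Each of the 2 runs has its own table, in which the authors deposited raw counts for every gene. The submitters' processing notes name TopHat2 2.0.12, Bowtie 0.12.9, DESeq2, HTSeq and GRCm38 without roles. Strand use in counting was not given in the sources used here.

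The 21420 shared identifiers were used, except in the organoid fit, which used all 23969 identifiers counted in run 385. CPM used TMM-scaled library sizes over all 13 libraries. Tests were edgeR 4.0.16 quasi-likelihood F tests (R 4.3.3, robust, TMM, filterByExpr with a minimum count of 10 and a minimum total of 15), with Benjamini-Hochberg adjustment over all genes and a threshold of 0.05. The crypt fit held 9 libraries with run as a term (14406 genes, 5 residual degrees of freedom), the organoid fit 4 libraries (12958 genes, 2 degrees of freedom) and the fit of crypts with organoids 13 libraries with run (14761 genes, 7 degrees of freedom). SEs are the log2 fold change over the square root of F. Ratios of summed counts used an exact binomial interval at 95%, or a floor of 3 counts over the group where it had 0. Levels between genes were divided by exon-union length from GENCODE M21, whose positions match the build of the deposited tables. DESeq2 1.42.0 was an alternative. The fits were tested on simulated data.

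Members and lists were chosen with earlier results of these data known. Named genes were all members, up to 4 genes per list and comparison with the largest absolute log2 fold change among those past the threshold, all measured carbonic anhydrases, trefoil factors and gel-forming mucins, genes starting within 100 kb of a member, and the 3 genes most like each member. Gkn2, Cldn18, Scnn1b, Scnn1g, Atp4a, Cdx2 and Hnf4a fall outside this rule and were chosen after their values were seen. Some genes that the rule names are not reported here. Crypt libraries share run and title numbers. Deviations from the group means of same-numbered Eed KO and WT crypts correlated at 0.188, 0.409 and 0.366 over 12939 genes, each above 0.1. These numbers were therefore taken as pairs, a pairing that comes from the data and not from the labels. Eed KO crypt 385_1 correlated more with WT crypt 385_2 (0.410) than with its same-numbered partner. The means were taken over both runs, so shared run enters the correlations and they do not single out these pairs. Blocked values stand beside results whose call they change. With the block, 1589 genes were past the threshold in place of 3463.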

Additional observations from a re-analysis of the deposited data

Results flagged for a closer look

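The Eed effect in crypts differed from that in organoids for 10 of the genes considered, by the contrast of both differences in the edgeR fit of 13 libraries (608 of 14761 genes past an adjusted p of 0.05). The groups hold 2 or 3 libraries, too few for a test of single outlying libraries. Among members, given without p-values, the difference was 4.33 log2 units for Slc9a4, 3.63 for Car2 and 11.16 for Aqp8. The last is a fitted value against WT crypts with 0 counts and no bound, while Aqp8 was expressed in organoids of both genotypes. The effect was more positive in crypts for Vsig1 (7.88 ± 1.03, edgeR adjusted p = 0.00511), with WT organoids at 1.46 to 2.40 CPM. This fitted value, as for Aqp8, rests on WT crypts with 0 counts and is no bound. It was also more positive for Anxa10 (3.78 ± 0.93, edgeR adjusted p = 0.0482), which was past the threshold in 6 of 20 alternatives. Anxa10 had 28 counts over the Eed KO and 1 over the WT crypts. The effect was more negative in crypts for Capn9 (-2.50 ± 0.30, edgeR adjusted p = 0.00169), A4gnt (-1.64 ± 0.28, edgeR adjusted p = 0.0105) and Esrrg (-1.10 ± 0.22, edgeR adjusted p = 0.0197). Among colon genes it was more negative in crypts for Slc5a8 (-5.09 ± 0.98, edgeR adjusted p = 0.0189) and Zg16 (-3.97 ± 0.83, edgeR adjusted p = 0.0253). Slc5a8 had no call in crypts, at a mean of 23.0 CPM in Eed KO against 12.2 CPM in WT crypts, and had 3 counts over the WT organoids. Zg16 fell in Eed KO crypts and rose in Eed KO organoids.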

How the results depend on the processing

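Slc9a4, Car2, Aqp8 and Tff2 were past the threshold as higher in Eed KO crypts in all 20 alternatives, with log2 fold changes of 8.58 to 10.42, 6.65 to 7.01, 7.48 to 12.1 and 7.79 to 9.57. Car4 kept its sign in all 20 (-8.66 to -2.17) and was past the threshold in 16, but not without the low-count filter (-5.49), without Eed KO crypt 385_1 (-4.46), with the replicate block (-5.73) or without the run term (-3.72). Best2 ran from -0.70 to 1.49 and was past the threshold in 3, without Eed KO crypt 440_1 (1.42), without WT crypt 440_1 (1.49) and in run 385 only (1.46). Against WT crypts, Ezh2 KO passed for Best2 in 4 of 17 and for Car4 in 1, without WT crypt 440_1 (-7.12). In organoids Slc9a4 and Car2 passed in all 11 alternatives and Tff2 in 9. No call was reversed. The causes of the changes below were not tested.

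Eed KO against WT crypts gave 3463 genes past the threshold, but 1274 in run 440 only, 1589 with the replicate block, 2268 without the run term, 1837 at an adjusted p of 0.01, and 2140 (without WT crypt 385_2) to 4145 without 1 library. Colon genes that were higher numbered 2, but 5 with library totals, 6 in DESeq2, 5 in run 385 only, 1 without the Ezh2 KO libraries, with the block or without the run term, 0 at 0.01, and 0 to 5 without 1 library. Colon genes that were lower numbered 4, but 1 in run 440 only, and 2 without the filter, the Ezh2 KO libraries or the run term, with the block or at 0.01, and 2 to 5 without 1 library. Stomach genes were 11 to 14 higher and 3 to 4 lower without 1 library. Ezh2 KO against WT crypts gave 3 genes, but 8 without the filter, 68 in DESeq2, 6 without the run term and 1 at 0.01. Without 1 library it gave 1 to 513 (513 without WT crypt 440_1), with 0 to 2 colon genes higher, 0 to 1 lower and 0 stomach genes. Eed KO against Ezh2 KO crypts gave 2886 genes, but 1181 at 0.01, and 1816 to 4193 without 1 library. There colon genes lower numbered 2, but 0 with library totals or at 0.01, and colon genes higher 2, but 0 at 0.01. Without 1 library they were 0 to 4 lower and 0 to 2 higher, and stomach genes 2 (without Eed KO crypt 440_1) to 14 higher and 4 to 5 lower.

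In organoids 2352 genes passed, but 1193 at 0.01 and 1339 (without WT organoid 385_1) to 2268 without 1 library. With the title number as a replicate block 3902 passed. The correlation of same-numbered organoids was 0.359, above the 0.1 used for crypts. With 2 libraries a group the deviations mirror each other, so both pairs give the same value and it cannot decide on pairing. The main organoid fit therefore has no block. Stomach genes lower numbered 0, but 1 with RLE, without the filter, in DESeq2 and with the block. Colon genes higher numbered 5, but 8 with the block, and colon genes lower 2, but 1 at 0.01. Without 1 library the stomach genes were 8 to 10 higher and 0 to 1 lower, and the colon genes 5 to 9 higher and 1 to 3 lower. The crypt effect minus the organoid effect gave 608 genes, but 1185 in DESeq2, 1354 in run 385 only, 146 at 0.01, and 152 (without WT organoid 385_1) to 1284 (without Eed KO crypt 440_1). WT organoids against WT crypts gave 4142, but 2322 at 0.01, and 2084 to 4397 without 1 library.

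With library totals in place of TMM the median log2 fold change of all genes for Eed KO against WT crypts was 0.17 in place of -0.04, and 2649 genes were higher and 859 lower (75.5% higher) in place of 1932 and 1531 (55.8%). For the crypt effect minus the organoid effect the share was 41.9% in place of 27.5% and the median -0.01 in place of -0.14. Under the replicate block in crypts, 41 of the 60 called list genes kept their call and 19 lost it, and 4 members kept theirs. Depth limits Car1, Tff1, Muc6 and, in organoids, Car4 and Best2.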

Other observations

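Retnlb, a goblet cell gene induced by microbes and helminths, varied among WT crypts by run. It had 2.16, 2.08 and 10.3 CPM in Eed KO crypts 385_1, 385_2 and 440_1, 1575, 1067 and 1096 CPM in the Ezh2 KO crypts, and 0.446, 1.10 and 1508 CPM in WT crypts 385_1, 385_2 and 440_1. The 4 libraries above 1000 CPM were all of run 440, and Eed KO crypt 440_1, of the same run, was not among them.

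Ileum genes, with roles in bile acid and vitamin uptake among them, are given for both sources. In crypts 0 of 8 tested rose and 2 fell in Eed KO, beside 13.4% of all genes higher and 10.6% lower. The median log2 fold change of the 8 was -2.25, against -0.04 over all genes. The genes that fell were Amn and Nts, with blocked adjusted p of 0.0804 and 0.0856 (edgeR), so neither call held with the block. The 8 genes summed to 194 CPM in Eed KO against 155 CPM in WT crypt 440_1, and were lower in Eed KO than in WT crypts of run 385. In organoids 4 of 7 rose and 1 fell, beside 13.5% of all genes higher and 4.63% lower. Their median was 1.57, against -0.005 over all genes, and nothing is read from the counts or medians. Fgf15, the bile acid induced hormone of the ileum, rose in Eed KO organoids (4.43 ± 0.74, edgeR adjusted p = 0.00781). The difference between crypts and organoids was not tested over the list.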
